A study of Mus musculus with 11 samples.

Results

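Palbociclib, an oral inhibitor of the cyclin-dependent kinases CDK4 and CDK6, was given to 6 of the 11 mouse mammary tumours whose RNA was sequenced. These 6 tumours, 3 from mice given palbociclib alone and 3 from mice given palbociclib with OPG-Fc, are set here against all 5 tumours of mice that got no palbociclib. Members were taken from the treatment in the labels alone, so no expression value chose them. The tumours grew from 4T1, a mouse mammary carcinoma line, injected under the skin of both flanks of NSG mice, a strain that lacks T, B and NK cells. The groups were palbociclib (30 mg/kg each day by mouth, n = 3), the combination (the same palbociclib plus OPG-Fc, n = 3), OPG-Fc alone (10 mg/kg into the peritoneum, 3 times a week, n = 3) and vehicle (n = 2, called untreated in the sample titles). Treatment began at a tumour volume of about 100 mm3 and lasted 12 days. All samples carry a wild-type genotype label, and the label for cell type is epithelial, although whole tumour RNA also holds the host's stroma and vessels. The series title calls the model syngeneic, while the host named in the labels is NSG. The labels do not say that the tumours of a group came from different animals, so the p-values below measure the spread between these samples.

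CDK4 and CDK6 bind D-type cyclins and phosphorylate the retinoblastoma protein, which releases E2F factors and lets a cell pass from G1 into S phase. Palbociclib blocks that step in cells that still carry functional retinoblastoma protein. OPG-Fc is a fusion of osteoprotegerin, the soluble decoy receptor for the cytokine RANKL. RANKL acts through its receptor RANK in bone, in the mammary epithelium and in immune cells. OPG-Fc therefore enters here as the second factor of the design, and the difference given for each gene is the palbociclib difference after OPG-Fc has been taken into account.

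All values are FPKM, the authors' fragments per kilobase of transcript, scaled to the fragments of each library, for 17181 genes. The differences are on the scale of log2(FPKM + 1), which understates the change of genes near 1 FPKM. A gene was tested if it reached 1 FPKM in at least 2 libraries, which left 13074 genes, and it was called at a limma p under 0.05 after Benjamini-Hochberg adjustment over all of them. Vehicle replicate 2 was unlike the other tumours. The first principal component, with 60.5% of the variance, separated it from the rest, and its Epcam level was 11.71 FPKM, against 336.3 to 604.1 FPKM in the other 10 tumours. Summed FPKM over 34 epithelial genes was 185.2 in that library, and over 19 genes of B and plasma cells it was 9308, with the B-cell receptor gene Cd79a at 722.98 FPKM. The defining epithelial markers Epcam, Krt8, Krt18, Cdh1 and Cldn7 were high in every other tumour, as the cell type label implies. Results are therefore given for all 11 libraries and again for 6 against 4 without vehicle replicate 2. OPG-Fc replicate 2 stayed among the 4. Its summed FPKM over the B and plasma cell genes was 1114, against at most 60.99 in any library other than vehicle replicate 2. Over genes of T and NK cells it was 294.7, against 1498 in vehicle replicate 2 and at most 91.28 in any other library. The host strain lacks B, T and NK cells, and the source of this RNA was not tested. Palbociclib replicates 1 and 3 also carried the most skin transcripts: the summed level of 37 keratinocyte and hair follicle genes ran from 118.7 to 2184 FPKM in the 6 palbociclib-treated tumours and from 9.58 to 153 FPKM in the 5 others. It was 2184 and 2090 FPKM in those 2 libraries, and 244.7 and 328.9 FPKM in combination replicates 1 and 2. Of the defining skin markers, Krt1 was listed at 0 in 1 of the 6 and in 4 of the 5, and Krtdap in 1 and in 3. The files give no read counts, so the depth behind each value is unknown.

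In palbociclib-treated tumours, genes of the small and large ribosomal subunits, some histone genes and a mixed set of other genes were higher, and genes of blood vessels, fibroblasts and the extracellular matrix were lower. In all, 280 genes (2.14% of those tested) rose and 330 (2.52%) fell. The median difference was 0.63 among those that rose and -0.76 among those that fell, and the median over all tested genes was -0.04. Without vehicle replicate 2, 752 genes (5.84%) rose and 919 (7.14%) fell, and all 610 genes called with 11 libraries were called again in the same direction. In 524 genes (4.01%) the 6 palbociclib values all lay above the 5 others, and in 487 (3.72%) they all lay below. Of the called genes, 192 were above and 170 below without overlap. The counts without overlap were, without that library, 570 (4.43%) and 657 (5.1%), of which 410 and 438 were called.

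The number of calls depended heavily on which libraries were used. Leaving out any 1 of the 6 palbociclib-treated tumours left between 0 and 100 genes higher and between 8 and 94 lower. Leaving out OPG-Fc replicate 1, 2 or 3 left 1, 4 and 1 genes higher and 10, 17 and 8 lower. Without vehicle replicate 1, by contrast, 826 genes rose and 1496 fell. The authors' column names give 1 shared number to 2 of the combination libraries and another to 2 of the OPG-Fc libraries, and the labels do not say what it stands for; with each such pair averaged, 0 genes rose and 3 fell by limma. An unadjusted p under 0.05 was reached by 4099 genes with 11 libraries. The genes named next were those without overlap and with the smallest p, and the text gives how many of these fits each group of them survived.

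Among the 12 non-overlapping genes with the smallest p that rose, H1f4 changed most. It encodes linker histone H1.4, which binds DNA between nucleosomes and compacts chromatin. Its level was 2.57 FPKM in the lowest, 5.50 at the median and 7.35 in the highest palbociclib-treated tumour, against 1.43, 2.28 and 1.06 FPKM in OPG-Fc tumours and 0.9 and 1.36 FPKM in vehicle tumours. The 6 treated tumours did not overlap the 5 others, and the difference was 1.39 ± 0.18 (log2, SE; adjusted p = 0.0134). With vehicle replicate 2 left out it was 1.51 (adjusted p = 0.00163). A second linker histone gene of the same cluster on chromosome 13, H1f3, was chosen after its values were seen. It ranged from 1.55 through a median of 4.13 to 5.25 FPKM in treated tumours, against 1.91, 1.05 and 0.93 FPKM in OPG-Fc tumours and 0.35 and 0.65 FPKM in vehicle tumours, so 1 OPG-Fc tumour lay within the treated range. Its difference was 1.25 ± 0.19 (adjusted p = 0.0251), and 1.33 (adjusted p = 0.00522) without vehicle replicate 2. Transcripts of these replication-dependent histone genes normally end in a stem-loop and not in a poly(A) tail, and the libraries were made from RNA selected with oligo(dT). The levels given are those of the RNA that this selection kept.

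The promoters of the linker histone genes are shown because the genes share a known set of short elements near their start. The RefSeq promoters (build GRCm38.p6) of H1f4, at chr13:23622559-23622708 on the minus strand, and of H1f3, at chr13:23554882-23555031 on the plus strand, are printed from 150 bases to 1 base before the start of the gene. Capitals mark the H1 box AAACACA, the CCAAT box CCAAT and the TATA box TATAAA, each searched on both strands.
H1f4: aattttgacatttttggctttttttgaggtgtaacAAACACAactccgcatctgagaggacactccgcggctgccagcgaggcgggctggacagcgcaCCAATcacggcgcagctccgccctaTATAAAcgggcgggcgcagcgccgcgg
H1f3: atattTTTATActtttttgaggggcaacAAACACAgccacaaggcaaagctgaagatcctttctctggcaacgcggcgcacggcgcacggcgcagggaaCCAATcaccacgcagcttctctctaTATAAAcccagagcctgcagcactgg
The H1 box stood in the promoters of all 4 linker histone genes searched (H1f2, H1f3, H1f4 and H1f5). Of all 27025 genes with a RefSeq promoter, 4.12% had it in at least 1 promoter. CCAAT stood in all 4 and in 27.7% of those genes, and TATAAA in 3 of the 4 and in 8.89% of those genes. A match describes the letters only.

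The other 11 genes with the smallest p that rose were of mixed function and changed by 1.10 or less. Glrx encodes glutaredoxin, which removes glutathione from protein thiols. It had 79.28 FPKM in the lowest, 83.59 at the median and 87.75 in the highest treated tumour, against 59.78, 57.43 and 48.12 FPKM in OPG-Fc tumours and 49.43 and 55.51 FPKM in vehicle tumours. The treated tumours lay close together and well above the rest, with a difference of 0.62 ± 0.09 (adjusted p = 0.0170) and of 0.64 (adjusted p = 0.0047) without vehicle replicate 2. Ydjc, named for its likeness to a bacterial carbohydrate deacetylase, had 7.67, 8.8 and 11.79 FPKM as lowest, median and highest in treated tumours, against 5.08, 4.76 and 5.29 FPKM in OPG-Fc tumours and 3.65 and 4.82 FPKM in vehicle tumours. Its difference was 0.83 ± 0.12 (adjusted p = 0.017).

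Use1, a SNARE protein of retrograde transport from the Golgi to the endoplasmic reticulum, rose by 1.10 ± 0.18 (adjusted p = 0.0328). Its treated range was 127.47 to 215.98 FPKM, against 78.14 to 103.06 FPKM in OPG-Fc tumours and 59.14 and 53.03 FPKM in vehicle tumours. Sin3b, a scaffold of a histone deacetylase co-repressor that acts at cell cycle genes, rose by 0.58 ± 0.10 (adjusted p = 0.0328). It had 103.98, 132.2 and 146.55 FPKM as lowest, median and highest treated values, against 84.75, 98.84 and 95.31 FPKM in OPG-Fc tumours and 85.47 and 69.36 FPKM in vehicle tumours. The lowest treated tumour lay only a little above the highest of the others for Sin3b. Castor1, the cytosolic arginine sensor upstream of mTORC1, rose by 0.63 ± 0.11, Aimp1, a scaffold of the tRNA synthetase complex, by 0.67 ± 0.11 (its adjusted p was 0.0502 after correction for transcript length and GC content), and Msto1, which acts in mitochondrial shape and distribution, by 0.63 ± 0.11. Lsm1, a subunit of the ring that starts mRNA decapping, rose by 0.56 ± 0.10, with an adjusted p of 0.0328 in each of these 4. Klk8, a serine protease of skin and brain, rose by 1.00 ± 0.17 (adjusted p = 0.0328), and its 19.33 to 36.61 FPKM in treated tumours set it apart from 9.03 to 17.08 FPKM in the 5 others. Without vehicle replicate 2 and the 2 tumours with the most skin transcripts, palbociclib replicates 1 and 3, the difference of Klk8 was 0.88 (adjusted p = 0.0282). Combination replicates 1 and 2, with lower levels of skin transcripts, stayed in that fit.

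All 12 of these genes were higher by 0.57 to 1.44 in palbociclib against vehicle and by 0.48 to 1.68 in the combination against OPG-Fc. The sign in both was fixed in advance, because the 12 were chosen for treated values that all lay above the others. All 12 were called again without vehicle replicate 2, with adjusted p-values from 0.00163 to 0.0177. None kept its call in every fit with 1 of the 11 libraries left out: they kept it in 3 to 9 of the 11 fits.

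**Figure D1:**
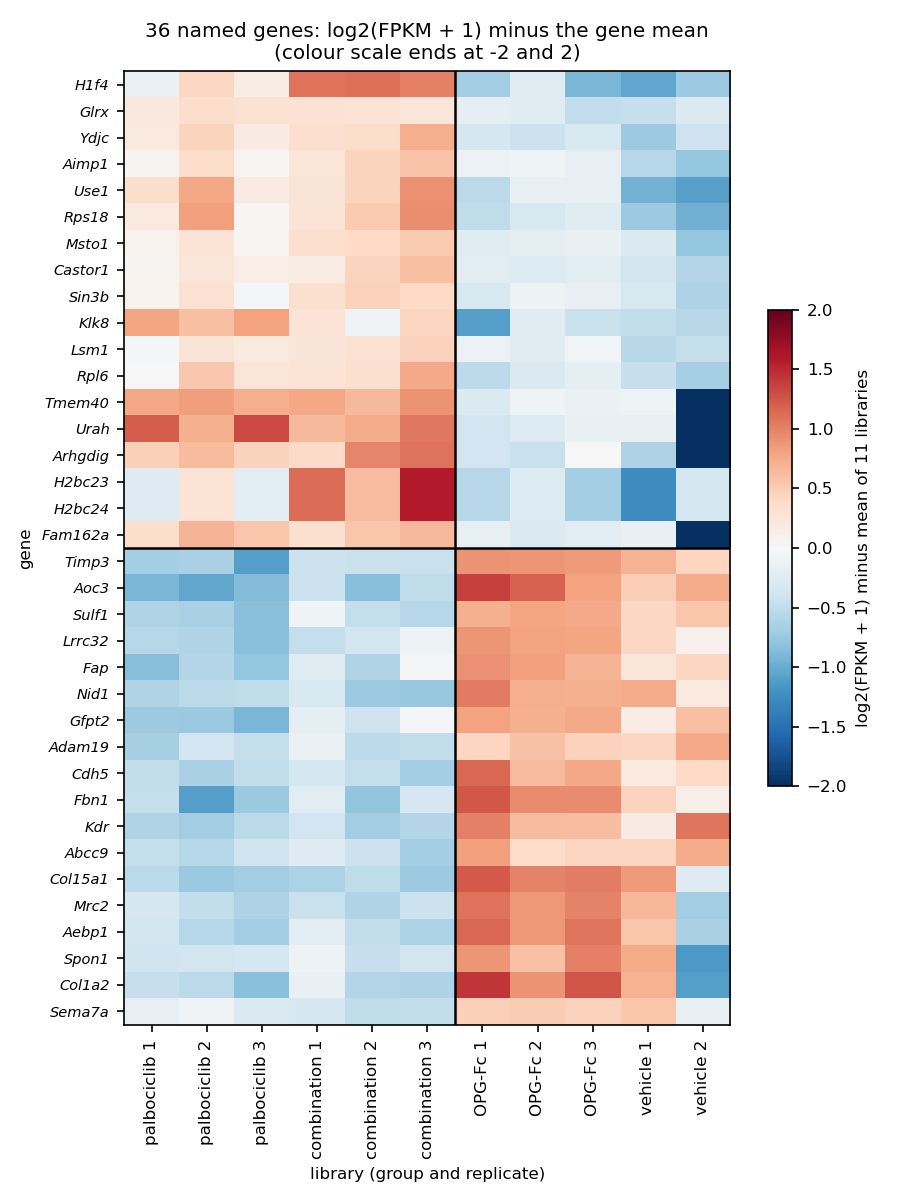
Heat map of log2(FPKM + 1) minus the gene's mean over 11 libraries, for 36 named genes (rows) and the 11 libraries (columns, palbociclib and combination left of the vertical line, OPG-Fc and vehicle right of it), with the colour scale ending at -2 and 2. Genes above the horizontal line are higher in the 6 treated tumours and genes below it are lower, and vehicle replicate 2 in the last column departs from the other OPG-Fc and vehicle tumours in some rows, among them Urah, Tmem40 and Spon1.

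The genes that fell did so by more, and with smaller p-values. The 12 named by the same rule fell by 0.98 to 1.64, and 7 of them kept their call in each of the 11 fits with 1 library left out. They encode matrix proteins and matrix-modifying enzymes, endothelial receptors and products of fibroblasts and pericytes. Timp3, the inhibitor of metalloproteinases that stays bound to the matrix, had 4.33, 6.82 and 7.47 FPKM as lowest, median and highest in treated tumours, against 20.41, 19.99 and 19.66 FPKM in OPG-Fc tumours and 17.5 and 14.39 FPKM in vehicle tumours. Every treated tumour lay far below every other one. The difference was -1.34 ± 0.11 (adjusted p = 0.00116) and -1.38 (adjusted p = 0.000276) without vehicle replicate 2. Aoc3, an amine oxidase and leukocyte adhesion protein on vessels, adipocytes and smooth muscle, had 2.12, 2.53 and 3.76 FPKM as lowest, median and highest in treated tumours, against 15.49, 13.46 and 10.09 FPKM in OPG-Fc tumours and 7.93 and 9.69 FPKM in vehicle tumours. Its difference of -1.64 ± 0.14 (adjusted p = 0.00116) was the largest of the 12, and its distance between the nearest tumours of the 2 sets, 0.91 on the log2 scale, was the widest of all genes that lay below.

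Sulf1, an extracellular enzyme that trims sulfate groups from heparan sulfate, had 4.84, 5.97 and 8.83 FPKM as lowest, median and highest in treated tumours, against 16.13, 16.96 and 16.7 FPKM in OPG-Fc tumours and 12.87 and 14.28 FPKM in vehicle tumours (-1.15 ± 0.11, adjusted p = 0.00305). Nid1, the nidogen that links laminin to collagen IV in basement membranes, had 11.07, 12.76 and 15.58 FPKM, against 40.81, 32.9 and 32.31 FPKM in OPG-Fc tumours and 33.19 and 22.39 FPKM in vehicle tumours (-1.24 ± 0.15, adjusted p = 0.00941). Fap, a serine protease that marks activated fibroblasts, had 2.03, 2.62 and 4.39 FPKM, against 9.35, 8.68 and 7.74 FPKM in OPG-Fc tumours and 5.51 and 6.36 FPKM in vehicle tumours (-1.09 ± 0.13, adjusted p = 0.00941). In each of these matrix genes the treated tumours did not overlap the others. Fbn1, the fibrillin of elastic microfibrils, fell by 1.31 ± 0.17, Adam19, a membrane metalloproteinase, by 0.98 ± 0.12, Gfpt2, an enzyme of hexosamine synthesis, by 1.06 ± 0.12, and Lrrc32, which holds latent TGF-beta at the cell surface, by 1.04 ± 0.12, with adjusted p-values of 0.0128, 0.0106, 0.00941 and 0.00941. Timp3, Aoc3, Sulf1, Nid1, Fap, Gfpt2 and Lrrc32 were the 7 that kept their call in each of the 11 fits.

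Some genes stood out more clearly once vehicle replicate 2 was left out. Col15a1, the collagen XV of basement membrane zones, had 9.17, 9.74 and 10.97 FPKM as lowest, median and highest in treated tumours, against 38.62, 32.94 and 33.73 FPKM in OPG-Fc tumours, 29.65 FPKM in vehicle replicate 1 and 13.16 FPKM in vehicle replicate 2. The difference was -1.37 ± 0.21 (adjusted p = 0.0256) with 11 libraries and -1.64 (adjusted p = 3.74e-05) without vehicle replicate 2. Mrc2, a collagen uptake receptor, fell in both fits (-1.03, adjusted p = 0.0498, and -1.37, adjusted p = 0.000275), as did Aebp1, a collagen-binding matrix protein (-1.05, adjusted p = 0.045, and -1.36, adjusted p = 0.000689). Sema7a, a membrane-anchored semaphorin, also fell in both fits, by 0.68 with 11 libraries and by 0.86 without vehicle replicate 2. Col1a2, a chain of collagen I, and Spon1, a matrix protein of the F-spondin type, passed without that library and not with it: Col1a2 at -1.54 (adjusted p = 0.000833) against -1.10 (adjusted p = 0.0697), and Spon1 at -1.13 (adjusted p = 0.000833) against -0.71 (adjusted p = 0.15). Spon1 was at 7.06 FPKM in vehicle replicate 2, below all treated tumours.

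The same held for genes that were higher. Urah, an enzyme of urate breakdown, had 77.66, 93.61 and 124.4 FPKM as lowest, median and highest in treated tumours, against 37.64, 40.89 and 44.64 FPKM in OPG-Fc tumours, 44.55 FPKM in vehicle replicate 1 and 0.9 FPKM in vehicle replicate 2. With 11 libraries the difference was 2.16 ± 0.73 (adjusted p = 0.0871), and without vehicle replicate 2 it was 1.13 (adjusted p = 0.00262). Tmem40 had 31.79 to 38.35 FPKM in treated tumours, against 16.17 to 18.77 FPKM in OPG-Fc tumours, 18.81 FPKM in vehicle replicate 1 and 0.26 FPKM in vehicle replicate 2, and rose in the fit without that library (0.92, adjusted p = 0.000833) but not in that of all 11 (1.79, adjusted p = 0.0893). Fam162a, a mitochondrial protein induced by hypoxia, differed by 0.71 (adjusted p = 0.00522) without it and by 1.18 (adjusted p = 0.0624) with it. With vehicle replicate 2 and the 2 tumours with the most skin transcripts left out, Urah differed by 1.03 (adjusted p = 0.0068) and Tmem40 by 0.94 (adjusted p = 0.00538). The core histone genes H2bc23 and H2bc24 had identical values in every library, so they count as 1 measurement, and the reason was not tested. Each was at 2.52 to 11.69 FPKM in treated tumours, against 1.63 to 2.47 FPKM in OPG-Fc tumours and 0.77 and 2.32 FPKM in vehicle tumours, and rose by 1.23 ± 0.26 (adjusted p = 0.0374).

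Cytosolic ribosomal protein genes were higher as a group. Of 79 measured, 49 rose and none fell, beside 2.14% of all tested genes that rose, and in 62 of them the 6 treated tumours all lay above the 5 others, beside 4.01% of all. The median difference was 0.66, all 79 differences were above 0, and they ran from 0.22 to 1.40. Rps18, a protein of the small subunit, had 4349 FPKM in the lowest, 5613 at the median and 8081 in the highest treated tumour, against 3003, 3395 and 3575 FPKM in OPG-Fc tumours and 2558 and 2184 FPKM in vehicle tumours. The treated tumours did not overlap the rest (1.05 ± 0.18, adjusted p = 0.0328). In the large subunit, Rpl6 rose by 0.80 ± 0.14, Rpl29 by 0.82 ± 0.14 and Rpl5, part of the particle that carries 5S RNA and can bind MDM2, by 0.58 ± 0.10, each with an adjusted p of 0.0328. Rpl5 had 1713 to 2023 FPKM in treated tumours, against 1073 to 1378 FPKM in OPG-Fc tumours and 1152 and 1197 FPKM in vehicle tumours. Ribosomal protein genes made up 28.1, 33.5 and 28.1% of summed FPKM in palbociclib tumours and 27.6, 29.9 and 35.2% in combination tumours, against 21.0, 24.1 and 24.2% in OPG-Fc tumours and 21.8 and 21.8% in vehicle tumours.

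Many ribosomal protein transcripts begin with a pyrimidine tract that couples their translation to growth signals, and the start of Rps18 is shown for it. The RefSeq sequence (build GRCm38.p6) at chr17:33955651-33955680, minus strand, covers 15 bases on each side of the start, and capitals mark the longest unbroken run of C and T.
Rps18: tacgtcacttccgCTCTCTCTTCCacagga
A run of at least 8 C or T in this window stood in 26 of 58 ribosomal protein genes with a RefSeq promoter (44.8%) and in 13.9% of all genes with one. The count describes annotated starts and was made after the expression values were seen.

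When vehicle replicate 2 was left out, 69 of these 79 genes rose (median 0.70), beside 5.84% of all, and 68 lay above without overlap, beside 4.43%. From that fit the 69 went to 0 without OPG-Fc replicate 1, to 2 without vehicle replicate 1, to 15 without OPG-Fc replicate 3 and to 41 without combination replicate 2. Over all tested genes, 55, 139, 152 and 406 rose in those fits. Without combination replicate 3 it was 46, beside 469 of all. With 11 libraries, the calls went to 0 when any 1 of 8 libraries was left out (palbociclib replicate 1, 2 or 3, combination replicate 2 or 3, or OPG-Fc replicate 1, 2 or 3), to 30 without combination replicate 1 and to 56 without vehicle replicate 1, while the median stayed between 0.59 and 0.72. In those 8 fits only 0 to 6 of all tested genes rose, and 100 and 826 rose in the last 2. Scaling also mattered: when the libraries were forced to 1 common distribution of values (quantile normalization), 4 of the 79 rose, 16 lay above without overlap and the median was 0.16 (10, 17 and 0.15 without vehicle replicate 2). Of all 13074 tested genes, 93 rose and 596 lay above in that fit. Without vehicle replicate 2 it was 631 and 702 of 12872. Summed FPKM itself was 651306 to 864670 in treated tumours, against 576699 to 646150 in the others. Short transcripts were also higher in general: the median transcript length was 996 bases among genes that rose, 3067 among genes that fell and 2093 among all tested, and the median difference was 0.15, 0.05, -0.09 and -0.24 in 4 equal classes of genes from the shortest to the longest transcripts. After a correction for length and GC content, 31 of the 79 rose, with a median of 0.53 (52 and 0.51 without vehicle replicate 2). Of all tested genes, 112 of 12942 rose in that fit, and 544 of 12743 without vehicle replicate 2. The part of RNA quality or library preparation in this length trend was not tested.

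Other short, abundant transcripts moved the same way to a lesser extent. Of 59 nuclear-encoded respiratory chain genes, 5 rose and none fell (median 0.29), beside 2.14% of all tested genes that rose, and 18 rose without vehicle replicate 2, beside 5.84%. After the correction for length and GC content 2 rose, beside 112 of all 12942 genes in that fit, with a median of 0.14. Cox6c, a subunit of cytochrome c oxidase, had 777.45, 909.9 and 1129 FPKM as lowest, median and highest in treated tumours, against 696.71, 688.42 and 717.76 FPKM in OPG-Fc tumours and 530.54 and 512.9 FPKM in vehicle tumours (0.58 ± 0.11, adjusted p = 0.0343). Ndufb9, a subunit of complex I, rose by 0.95 ± 0.18 (adjusted p = 0.0343, and 0.0524 after that correction). Of 31 proteasome genes, 2 rose and none fell (median 0.28), and 8 rose without vehicle replicate 2, beside the same shares of 2.14% and 5.84%. The correction left 1 that rose, beside the same 112 of all 12942 genes. Psma7, an alpha subunit of the core particle, was at 319.51 to 461.11 FPKM in treated tumours, against 222.76 to 313.55 FPKM in OPG-Fc tumours and 251.09 and 206.38 FPKM in vehicle tumours (0.54 ± 0.12, adjusted p = 0.0421, and 0.0501 after the correction).

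**Figure D2:**
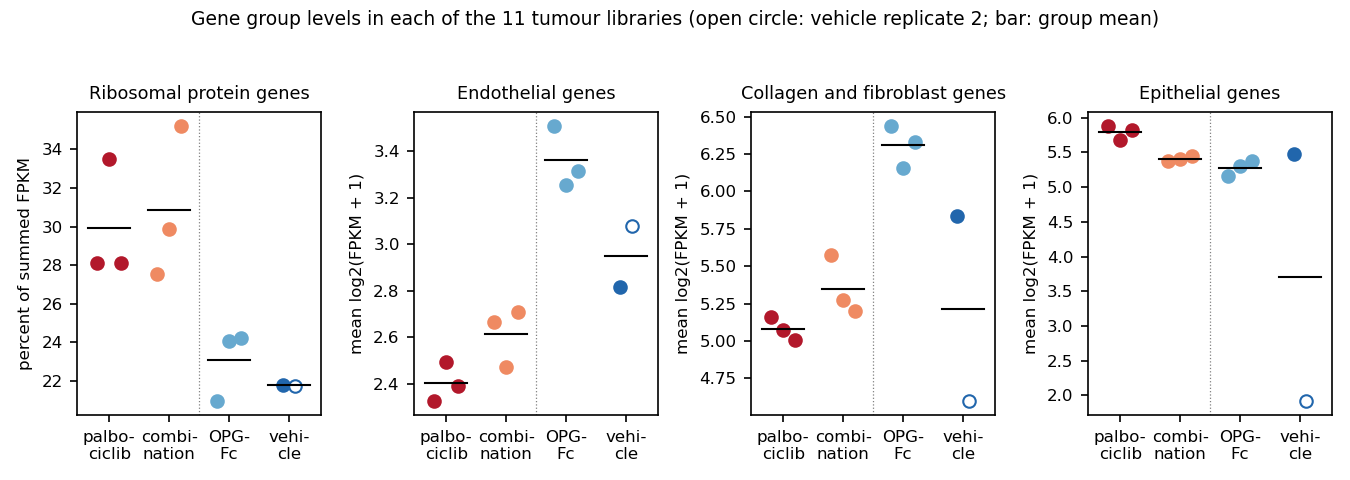
Level of gene groups in each of the 11 libraries, as percent of summed FPKM (ribosomal protein genes) or mean log2(FPKM + 1) (endothelial, collagen and fibroblast, and epithelial genes), each panel with its own vertical axis, grouped as palbociclib, combination, OPG-Fc and vehicle, with a bar at each group mean and vehicle replicate 2 as an open circle. Ribosomal protein genes took 27.6 to 35.2% of summed FPKM in the 6 treated tumours, against 21.0 to 24.2% in the 5 others, and endothelial genes lie lower in the treated tumours.

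Genes of the vessel wall were lower. Of 36 endothelial genes, 19 fell and none rose, beside 2.52% of all tested genes that fell; 11 lay below without overlap, beside 3.72% of all, and the median difference was -0.79. In the fit of 10 libraries, 26 of 36 fell (median -0.67), beside 7.14% of all. In bulk RNA, fewer cells of a type and less RNA per cell cannot be told apart. Cdh5, the VE-cadherin of endothelial junctions, had 7.91, 9.12 and 10.13 FPKM as lowest, median and highest in treated tumours, against 30.74, 21.02 and 23.41 FPKM in OPG-Fc tumours and 15.32 and 17.72 FPKM in vehicle tumours. The treated tumours lay close together and below all others (-1.13 ± 0.14, adjusted p = 0.0128, and -1.15, adjusted p = 0.00329, without vehicle replicate 2). Kdr, the main receptor for VEGF-A on endothelium, had 1.63, 1.82 and 2.26 FPKM, against 7.61, 5.63 and 5.56 FPKM in OPG-Fc tumours and 3.79 and 7.97 FPKM in vehicle tumours (-1.28 ± 0.17, adjusted p = 0.0134). Tie1, a receptor kinase of the angiopoietin system, fell by 0.86 ± 0.14, and Aplnr, the apelin receptor, by 1.02 ± 0.18, both with an adjusted p of 0.0328. For Aplnr 1 vehicle tumour, at 4.31 FPKM, lay within the treated range of 2.02 to 5.76 FPKM.

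The endothelial calls depended on single libraries less in size than in number: leaving out 1 library other than vehicle replicate 2 gave 0 to 22 endothelial genes that fell, with medians from -0.90 to -0.71. Over all tested genes, 8 to 1496 fell in those fits. The endothelial calls were 0 without combination replicate 2 or OPG-Fc replicate 3, 1 without OPG-Fc replicate 1, 2 without palbociclib replicate 1, 2 or 3, combination replicate 3 or OPG-Fc replicate 2, 8 without combination replicate 1 and 22 without vehicle replicate 1. From the 26 of the 10-library fit they went to 8 without OPG-Fc replicate 1, to 10 without OPG-Fc replicate 3 and to 17 without combination replicate 2. After the correction for length and GC content 15 fell, beside 214 of all 12942 genes in that fit. After quantile normalization 11 fell, beside 117 of all 13074. Of 20 genes of pericytes and smooth muscle, 2 fell and none rose, and 7 fell without vehicle replicate 2, beside 2.52% and 7.14% of all. Rgs5, a regulator of G-protein signalling that marks pericytes, had 9.25, 10.55 and 15.41 FPKM as lowest, median and highest in treated tumours, against 37.59, 24.36 and 36.45 FPKM in OPG-Fc tumours and 20.04 and 34.2 FPKM in vehicle tumours (-1.34 ± 0.18, adjusted p = 0.0134). Abcc9, the sulfonylurea receptor subunit of the vascular potassium channel, fell by 1.03 ± 0.14 (adjusted p = 0.0134).

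Collagen and fibroblast genes were lower too, most clearly against the tumours other than vehicle replicate 2. Of 38, 9 fell and none rose with 11 libraries (median -0.76), beside 2.52% of all tested genes that fell. In the fit without vehicle replicate 2, 28 fell (median -0.99), beside 7.14%, and 23 lay below without overlap, beside 5.1%. Col3a1, a fibrillar collagen, had 130.86, 189.4 and 278.92 FPKM as lowest, median and highest in treated tumours, against 983.26, 614.06 and 779.07 FPKM in OPG-Fc tumours and 347.2 and 240.93 FPKM in vehicle tumours. Vehicle replicate 2 lay within the treated range and the other 4 lay above it, with a difference of -1.37 ± 0.22 (adjusted p = 0.0328) and of -1.56 (adjusted p = 0.00271) without that library. Col14a1, a collagen that sits on fibril surfaces, had 1.34, 1.93 and 3.45 FPKM as lowest, median and highest in treated tumours, against 14.93, 13.16 and 7.52 FPKM in OPG-Fc tumours and 4.07 and 13.81 FPKM in vehicle tumours (-1.77 ± 0.28, adjusted p = 0.0328). Leaving out 1 of the other 10 libraries from all 11 gave 1 to 12 genes of this list that fell, beside 8 to 1496 of all tested genes, with medians from -0.80 to -0.57. The 12 stood without vehicle replicate 1, where 2 of the list rose, the 6 without combination replicate 1, the 3 without palbociclib replicate 1, the 1 without OPG-Fc replicate 3, and it was 2 without any other.

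Basement membrane and matrix enzyme genes followed the same pattern. Beside the same 2.52% and 7.14% of all tested genes, of 19 basement membrane genes 3 fell, and 12 did without vehicle replicate 2, whose level of these genes was the lowest of all libraries. Lama4, a laminin chain of vessel basement membranes, fell by 1.03 ± 0.17 (adjusted p = 0.0328). Of 37 genes for collagen processing and matrix enzymes 4 fell, and 15 did without vehicle replicate 2, beside the same shares, with medians of -0.03 and -0.40. Mmp2, the gelatinase of collagen IV, had 23.9 to 46.64 FPKM in treated tumours, against 73.92 to 96.38 FPKM in OPG-Fc tumours and 44.07 and 36.73 FPKM in vehicle tumours (-0.91 ± 0.18, adjusted p = 0.0352), so both vehicle tumours lay within the treated range. Of 20 TGF-beta pathway and Wnt antagonist genes, 2 fell, beside 2.52% of all. Both were secreted frizzled-related proteins that bind Wnt ligands: Sfrp4 (-2.17 ± 0.48, adjusted p = 0.0412) and Sfrp2 (-1.05 ± 0.25, adjusted p = 0.0453, and 0.0547 after the length and GC correction). The median of that list was -0.07, and -0.46 without vehicle replicate 2, where 7 fell, beside 7.14%. Of 19 genes of epithelial-mesenchymal transition, 2 fell, beside 2.52%: Mmp2, already given above, and the repressor Zeb1 (-1.05 ± 0.22, adjusted p = 0.0372). Without vehicle replicate 2, 8 fell, beside 7.14%. The medians of this list were -0.12 and -0.29, and 0.04 and -0.23 after the length and GC correction.

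Adipocyte genes varied widely between tumours. Of 20, 3 fell and none rose, beside 2.52% of all tested genes that fell, all 20 differences were below 0, and their median was -1.47. After the correction for length and GC content none was called by limma, with adjusted p-values of 0.0548 for Lpl, 0.0548 for Pck1 and 0.0566 for Pparg. In the fit of 10 libraries, 3 of 19 fell (median -1.25), beside 7.14% of all. Lpl, the lipoprotein lipase that adipocytes release, had 2.53, 3.40 and 9.1 FPKM as lowest, median and highest in treated tumours, against 46.99, 44.85 and 22.32 FPKM in OPG-Fc tumours and 4.54 and 57.41 FPKM in vehicle tumours (-2.35 ± 0.51, adjusted p = 0.0403). Pck1, the enzyme of glycerol synthesis in fat, fell by 2.15 ± 0.52 (adjusted p = 0.0476) and Pparg, the master regulator of fat cell formation, by 1.36 ± 0.33 (adjusted p = 0.0486). For all 3 genes vehicle replicate 1 lay within the treated range. None of the defining markers Adipoq, Plin1, Fabp4 and Cidec was at 0 in any library. How much fat each piece of tumour held was not tested.

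Among immune and clearance genes the changes were fewer. Of 26 macrophage genes 3 fell, beside 2.52% of all tested genes, and 6 did without vehicle replicate 2, beside 7.14%. Adgre1, which encodes F4/80, fell by 0.74 ± 0.15 (adjusted p = 0.0362) and Csf1r, the receptor that macrophages need to survive, by 1.11 ± 0.24 (adjusted p = 0.0391). Siglec1, a sialic acid receptor, fell by 1.42 ± 0.31 (adjusted p = 0.0406, and 0.073 after the length and GC correction). Csf1r was at 26.79 to 51.2 FPKM in treated tumours, against 81.53 to 88.28 FPKM in OPG-Fc tumours and 38.75 and 119.19 FPKM in vehicle tumours. The summed level of the macrophage list was 1980 to 7128 FPKM in treated tumours, against 2726 to 6817 FPKM in the others, so as a whole it overlapped. Of 40 lysosome genes 4 fell, beside 2.52% of all, and 6 lay below without overlap, beside 3.72%. Psap, the precursor of the saposins, had 423.29, 519.4 and 603.09 FPKM as lowest, median and highest in treated tumours, against 774.39, 996.49 and 785.8 FPKM in OPG-Fc tumours and 779.62 and 1596 FPKM in vehicle tumours (-0.91 ± 0.18, adjusted p = 0.0362).

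The lysosome members Scarb2, which carries glucocerebrosidase to the lysosome, Tpp1, a lysosomal peptidase, and Atp6ap1, an accessory subunit of the proton pump, fell by 0.67 ± 0.13, 0.82 ± 0.19 and 0.46 ± 0.10, with adjusted p-values of 0.0362, 0.0421 and 0.0412. After the correction for length and GC content Scarb2 and Tpp1 no longer passed (adjusted p = 0.083 and 0.078). Of 27 genes of the endoplasmic reticulum stress response and its chaperones, 1 fell, the chaperone Hsp90b1 (-0.89 ± 0.20, adjusted p = 0.0412), and 7 lay below without overlap, beside the same shares. Sel1l, an adaptor of protein degradation from the endoplasmic reticulum, at -0.98 (adjusted p = 0.0552), Hyou1, a chaperone induced by hypoxia, at -0.88 (adjusted p = 0.0508), and the lectin chaperone Calr, at -0.37 (adjusted p = 0.0555), missed the threshold. The first 2 of them passed without vehicle replicate 2.

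**Figure D3:**
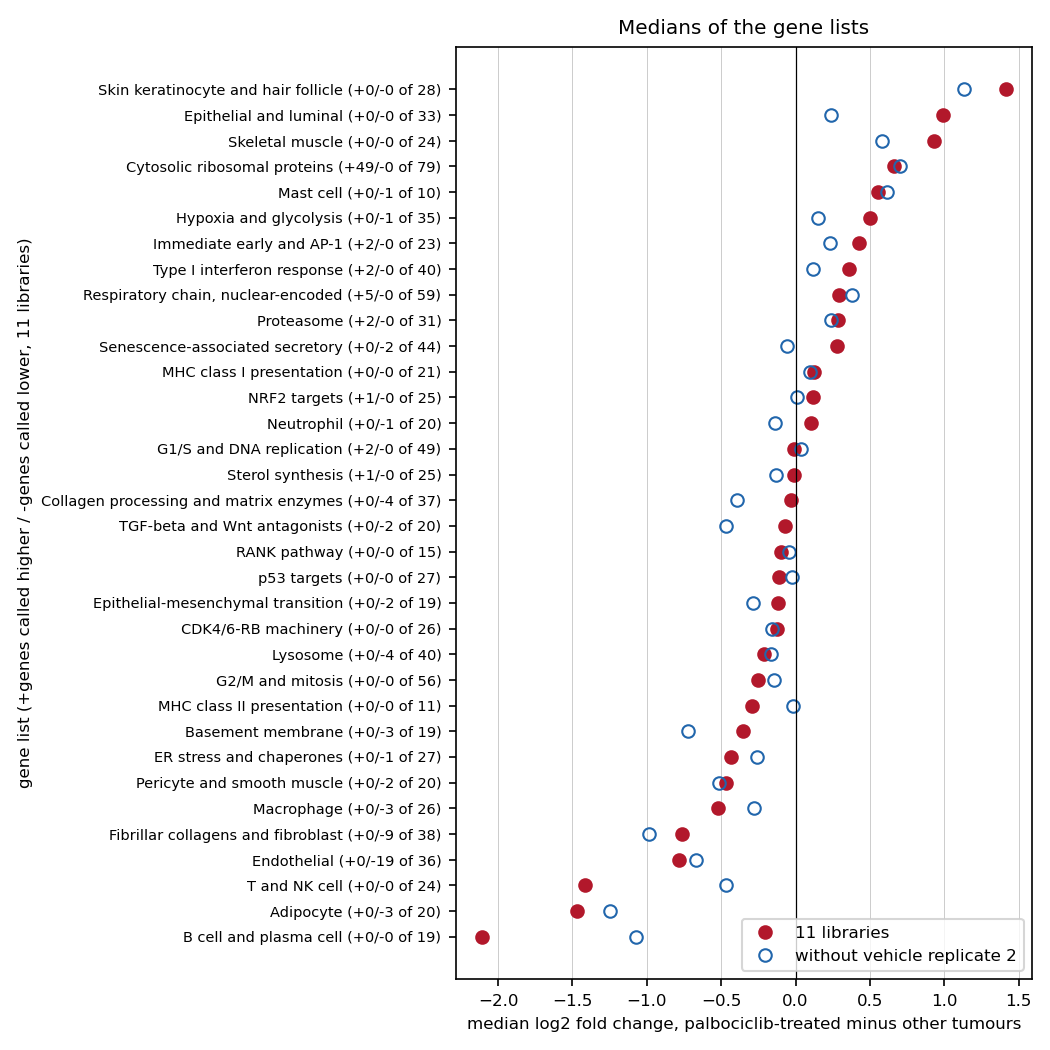
Median log2 difference of each of 34 gene lists, palbociclib-treated minus other tumours (horizontal axis), for 11 libraries (filled) and without vehicle replicate 2 (open), with the number of genes called higher and lower beside each list name. Ribosomal protein genes (49 higher of 79) and endothelial genes (19 lower of 36) hold the most calls in each direction, and the epithelial list moves from 0.99 to 0.24 once vehicle replicate 2 is left out.

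Genes of the drug's own pathway gave no call with 11 libraries. None of 26 genes of the CDK4/6 and retinoblastoma machinery passed by limma, beside 2.14% of all tested genes that rose and 2.52% that fell. A count of 0 in a list of 26 is near those shares. An unadjusted p under 0.05 was reached by 4099 of all tested genes. Without vehicle replicate 2, 1 of the 26 passed, Ccnd2, which fell, beside 7.14% of all. Cdk4 had 324.23, 369.3 and 598.36 FPKM as lowest, median and highest in treated tumours, against 259.46, 329.63 and 313.34 FPKM in OPG-Fc tumours and 296.44 and 170.62 FPKM in vehicle tumours (0.60 ± 0.18, adjusted p = 0.0688). Treated tumours lay mostly above the others, with 1 OPG-Fc tumour within their range. Cdk6 had 5.62 to 12.18 FPKM in treated tumours, against 8.13 to 10.78 FPKM in OPG-Fc tumours and 12.27 and 5.66 FPKM in vehicle tumours (-0.13 ± 0.22, adjusted p = 0.705).

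The D-type cyclins showed how much vehicle replicate 2 weighed. Ccnd1, cyclin D1, had 174.77, 276.1 and 309.13 FPKM as lowest, median and highest in treated tumours, against 268.61, 225.84 and 297.34 FPKM in OPG-Fc tumours, 332.6 FPKM in vehicle replicate 1 and 13.12 FPKM in vehicle replicate 2. Its difference was 0.83 ± 0.71 (adjusted p = 0.415) with that library and -0.17 (adjusted p = 0.395) without it. Ccnd2, cyclin D2, had 5.15 to 9.05 FPKM in treated tumours, against 11.18 to 14.18 FPKM in OPG-Fc tumours and 8.85 and 45.81 FPKM in vehicle tumours, with differences of -1.16 ± 0.35 (adjusted p = 0.0687) and, without vehicle replicate 2, of -0.70 (adjusted p = 0.0238). Rb1, the retinoblastoma gene, was at 2.76 to 5.57 FPKM in treated tumours, against 5.04 to 6.48 FPKM in OPG-Fc tumours and 5.15 and 17.29 FPKM in vehicle tumours (-0.66 ± 0.29, adjusted p = 0.154). Its relative Rbl1, which encodes p107, differed by -0.45 ± 0.15 (adjusted p = 0.0832) and E2f1, a factor released when the retinoblastoma protein is phosphorylated, by 0.17 ± 0.13 (adjusted p = 0.355).

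The inhibitors of the pathway did not pass either. Cdkn1a, which encodes p21 and is a p53 target, had 27.6 to 42.77 FPKM in treated tumours, against 23.99 to 34.37 FPKM in OPG-Fc tumours and 30.46 and 17.32 FPKM in vehicle tumours (0.39 ± 0.15, adjusted p = 0.113). Cdkn2a, the locus of p16 and p19ARF, was at 0.18 to 1.12 FPKM in treated tumours, against 0.77 to 3.09 FPKM in OPG-Fc tumours and 0.72 and 7.64 FPKM in vehicle tumours (-1.05 ± 0.41, adjusted p = 0.117). None of 27 p53 target genes was called, which is near the 2.14% and 2.52% of all tested genes that rose and fell.

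Cell cycle genes, which lie downstream of the drug's targets, held few calls. Of 49 G1/S and DNA replication genes 2 rose, beside 2.14% of all, none fell and none was without overlap, with a median of -0.01. Both were subunits of the GINS complex of the replicative helicase: Gins2 (0.66 ± 0.16, adjusted p = 0.0459) and Gins4 (0.39 ± 0.10, adjusted p = 0.0488, and 0.053 after the length and GC correction). Gins2 had 41.35 to 66.93 FPKM in treated tumours, against 38.73 to 45.37 FPKM in OPG-Fc tumours and 35.77 and 18.87 FPKM in vehicle tumours. Of 56 G2/M and mitosis genes none was called by limma in either setting. Of all tested genes, 2.14% rose and 2.52% fell with 11 libraries, and 5.84% and 7.14% without vehicle replicate 2. The median of the list was -0.25 over 11 libraries and -0.15 without vehicle replicate 2, beside -0.04 and -0.05 over all tested genes. Mki67, the antigen of cycling cells, had 13.37, 19.16 and 36.14 FPKM as lowest, median and highest in treated tumours, against 38.05, 40.25 and 34.24 FPKM in OPG-Fc tumours and 24.63 and 79.72 FPKM in vehicle tumours (-0.91 ± 0.32, adjusted p = 0.0972). Vehicle replicate 1 and 1 OPG-Fc tumour lay within the treated range. Aspm, a spindle pole protein, had 2.83, 4.37 and 6.83 FPKM, against 8.1, 8.49 and 7.39 FPKM in OPG-Fc tumours and 5.89 and 6.39 FPKM in vehicle tumours (-0.55 ± 0.16, adjusted p = 0.0649).

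Genes of the RANK pathway were not called either: 0 of 15 passed by limma, with a median of -0.10. That count is near the 2.14% and 2.52% of all tested genes that rose and fell. Tnfrsf11a, which encodes RANK, was at 0.91 to 1.71 FPKM in treated tumours, against 1.47 to 2.22 FPKM in OPG-Fc tumours and 0.89 and 2.31 FPKM in vehicle tumours (-0.24 ± 0.16, adjusted p = 0.313). Tnfsf11, the gene of RANKL, was at 0.36 to 2.07 FPKM, against 0.93 to 1.46 FPKM in OPG-Fc tumours and 0.52 and 3.3 FPKM in vehicle tumours (-0.10 ± 0.29, adjusted p = 0.832). Tnfrsf11b, the mouse osteoprotegerin gene, was at 1.45 to 5.93 FPKM, against 2.21 to 3.15 FPKM in OPG-Fc tumours and 2.5 and 0.67 FPKM in vehicle tumours (0.55 ± 0.30, adjusted p = 0.226). Levels this close to 1 FPKM carry wide relative errors, and the ranges overlapped in all 3 genes. Nfatc1, the transcription factor that RANK induces in osteoclasts, was the member without overlap, with 6.47, 8.76 and 10.69 FPKM as lowest, median and highest in treated tumours, against 10.96, 13.18 and 10.75 FPKM in OPG-Fc tumours and 11.05 and 42.95 FPKM in vehicle tumours. Its difference of -0.81 ± 0.30 did not pass (adjusted p = 0.104), nor did -0.42 (adjusted p = 0.0555) without vehicle replicate 2.

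Smaller changes were found in signalling and stress genes. Of 23 immediate early genes 2 rose, beside 2.14% of all tested genes: Jund, an AP-1 subunit (0.83 ± 0.16, adjusted p = 0.0355), and Ier2 (0.66 ± 0.15, adjusted p = 0.045). Jund had 70.36, 88.2 and 115.18 FPKM as lowest, median and highest in treated tumours, against 50.06, 54.82 and 63.75 FPKM in OPG-Fc tumours and 42.83 and 45.22 FPKM in vehicle tumours. Of 40 type I interferon response genes 2 rose, beside the same share, and 4 lay above without overlap, beside 4.01% of all. They were Isg20, an antiviral exonuclease (0.58 ± 0.13, adjusted p = 0.0449), and Ifi35 (0.59 ± 0.14, adjusted p = 0.045). Isg20 was at 54.39 to 61.22 FPKM in treated tumours, against 30.87 to 54.15 FPKM in OPG-Fc tumours and 35.01 and 36.86 FPKM in vehicle tumours, so the gap to the nearest OPG-Fc tumour was small. With the correction for length and GC content, Jund (adjusted p = 0.097), Ier2 (0.063), Isg20 (0.097) and Ifi35 (0.0502) did not pass.

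Of 35 hypoxia and glycolysis genes 1 fell, a share near the 2.52% of all tested genes. Without vehicle replicate 2 there were 2 that rose, beside 5.84% of all, and 5 that fell, beside 7.14%. The 1 was Slc2a3, a high-affinity glucose transporter, with 1.53, 1.96 and 2.33 FPKM as lowest, median and highest in treated tumours, against 4.48, 4.45 and 3.79 FPKM in OPG-Fc tumours and 4.57 and 12.43 FPKM in vehicle tumours (-1.16 ± 0.22, adjusted p = 0.0343). The treated tumours did not overlap the rest, while the list as a whole had a median of 0.50, and of 0.15 without vehicle replicate 2. Pfkfb3, a kinase that drives glycolysis, stood at -0.84 (adjusted p = 0.056), and at -0.60 (adjusted p = 0.042) without vehicle replicate 2. Of 44 genes of the senescence-associated secretory programme 2 fell and none rose, beside 2.52% of all that fell, and 7 fell without vehicle replicate 2, beside 7.14%. Igfbp5, an insulin-like growth factor binding protein, had 2.36, 4.08 and 4.78 FPKM as lowest, median and highest in treated tumours, against 15.36, 16.84 and 12.1 FPKM in OPG-Fc tumours and 6.07 and 54.17 FPKM in vehicle tumours (-1.85 ± 0.43, adjusted p = 0.045, and 0.0808 after the length and GC correction). Fgf2, a growth factor for fibroblasts and endothelium, fell by 0.56 ± 0.13 (adjusted p = 0.0456). The median of that list was 0.28 with 11 libraries and -0.06 without vehicle replicate 2.

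For epithelial genes, the calls and the median depended on vehicle replicate 2. Of 33, none was called with 11 libraries (median 0.99), although 9 lay above without overlap, beside 4.01% of all. Without that library 7 rose, beside 5.84%, and 1 fell, beside 7.14% (median 0.24). In that fit too 9 lay above without overlap, beside 4.43%. After the length and GC correction 3 lay above in either fit, beside 492 of all 12942 genes and 545 of 12743. Summed FPKM over the epithelial list was 4230 to 5198 in treated tumours. It was 3544 to 4073 in the tumours without palbociclib other than vehicle replicate 2. Spint2, an inhibitor of membrane serine proteases, had 197.33 to 315.19 FPKM in treated tumours, against 163.33 to 188.14 FPKM in OPG-Fc tumours and 194.07 and 62.93 FPKM in vehicle tumours. It differed by 0.47 (adjusted p = 0.0432) without vehicle replicate 2 and by 0.83 (adjusted p = 0.0874) with it. Pkp3, a desmosomal plakophilin, and Rab25, a trafficking GTPase of epithelia, rose in the same way without that library, by 0.53 (adjusted p = 0.0277) and 0.78 (adjusted p = 0.0299). None of 28 skin genes was called with 11 libraries (median 1.41), beside 2.14% and 2.52% of all tested genes that rose and fell. Jchain, the joining chain of secreted antibodies, was at 0.04 to 8.97 FPKM in treated tumours, against 13.27, 476.41 and 11.69 FPKM in OPG-Fc tumours and 9.19 and 3925 FPKM in vehicle tumours. Its difference was -5.37 ± 1.55 (adjusted p = 0.0629) with 11 libraries and -3.51 (adjusted p = 0.0382) without vehicle replicate 2, where OPG-Fc replicate 2 was the high library. Of 10 mast cell genes 1 fell, the stem cell factor receptor Kit (-0.78 ± 0.18, adjusted p = 0.0422, and 0.1 after the length and GC correction). The other 9 differences of that list were above 0 and not called, and its median was 0.55 (0.61 without vehicle replicate 2).

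The palbociclib difference was then taken apart by OPG-Fc. Without OPG-Fc, palbociclib against vehicle (3 against 2) gave no call by limma, with 3671 genes at an unadjusted p under 0.05, and 3 against vehicle replicate 1 alone gave none, with 1267. With OPG-Fc, the combination against OPG-Fc (3 against 3) gave 1 gene that rose (0.00765%) and 12 that fell (0.0918%). The fit without vehicle replicate 2 gave 142 (1.1%) and 522 (4.06%) for that contrast. Vehicle replicate 2 is in neither of its groups. It enters through the shared estimate of the spread and the choice of tested genes (13074 with it, 12872 without it). H1f4 rose in the combination by 1.68 (adjusted p = 0.038) and stood at 1.02 in palbociclib against vehicle. Timp3 was at -1.32 in the combination and -1.37 in palbociclib against vehicle, and Cdh5 at -1.36 and -0.84. These genes were chosen for values without overlap, which fixes the same sign in both contrasts. The 2 contrasts share no library, and over all tested genes their Spearman correlation was 0.52 (0.58 without vehicle replicate 2), given as a description across genes, which are not independent.

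**Figure D4:**
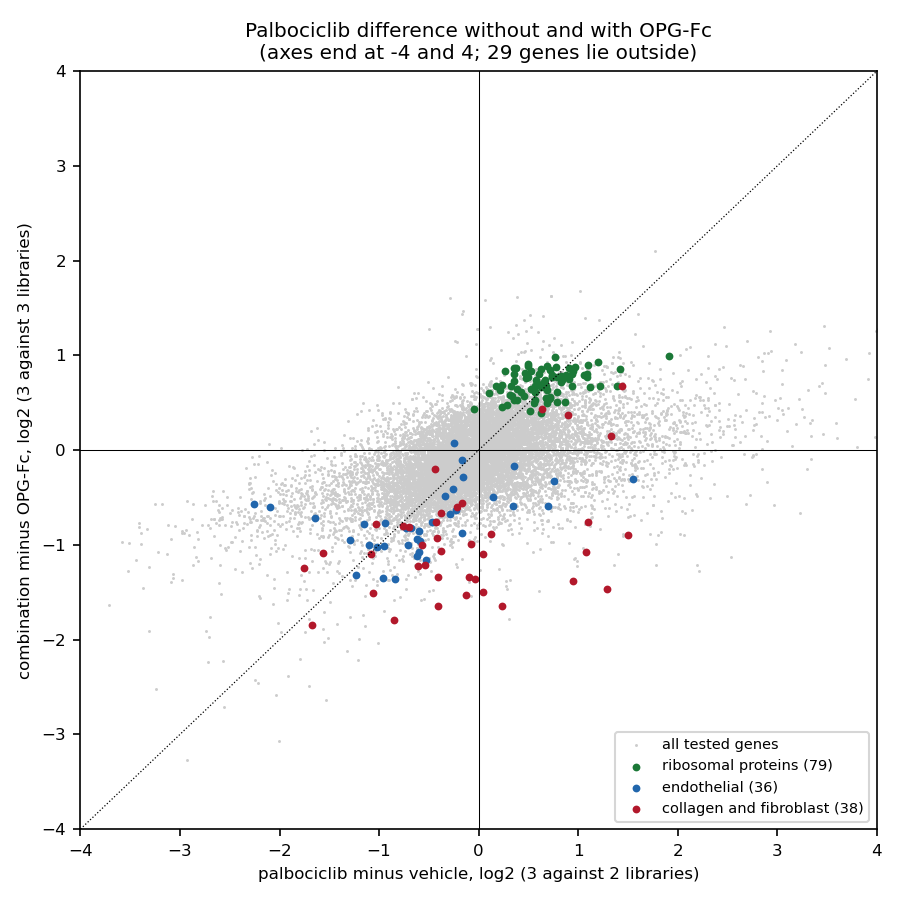
Palbociclib minus vehicle (horizontal axis, log2, 3 against 2 libraries) and combination minus OPG-Fc (vertical axis, log2, 3 against 3 libraries) for each tested gene, with gene groups in colour and 29 genes outside the axes, which end at -4 and 4. Of 79 ribosomal protein genes 78 lie above 0 on both axes, and of 36 endothelial genes 29 lie below 0 on both.

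The interaction, which tests whether the palbociclib difference itself changes with OPG-Fc, gave 0 genes by limma in 11 libraries (709 at an unadjusted p under 0.05) and 0 without vehicle replicate 2 (630). It gave 61 without palbociclib replicate 2 and 4798 without vehicle replicate 1, a fit that leaves vehicle replicate 2 as the only vehicle tumour. Cracr2b, a regulator of store-operated calcium entry, had the smallest p among genes with a lower palbociclib difference under OPG-Fc: -1.50 ± 0.26, adjusted p = 0.647. It was at 1.48 in palbociclib against vehicle and -0.02 in the combination against OPG-Fc. Avpi1, named for its induction by vasopressin, differed by -1.35 ± 0.31 in the same test and Praf2, a membrane protein of early vesicles, by 1.02 ± 0.20, both with an adjusted p of 0.647. Avpi1 nevertheless rose in the comparison of all palbociclib-treated tumours, with 34.33, 38.24 and 42.84 FPKM as lowest, median and highest, against 19.22, 21.49 and 26.9 FPKM in OPG-Fc tumours and 12.06 and 6.71 FPKM in vehicle tumours (1.28 ± 0.25, adjusted p = 0.0362, and 0.0547 after the length and GC correction). The absence of calls does not show that the 2 settings are alike.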

How the data were processed

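Per the labels, RNA from 11 tumours was selected with oligo(dT), primed with random primers and sequenced. The authors deposited 1 table of FPKM, normalized by transcript length and library total; the submitters' processing notes name HISAT, Bowtie2 and RSEM and the builds GRCm39 and mm39, without versions or roles. The filters that led to 17181 genes are not given in the sources used here. Mitochondrially encoded genes are not among them. Because FPKM are not counts, values were analysed as log2(FPKM + 1) with limma 3.58.1 (trend and moderated variances) in R 4.3.3, for genes with at least 1 FPKM in at least 2 libraries, with palbociclib and OPG-Fc as additive factors. A 4-group fit gave the palbociclib difference at each OPG-Fc level and the interaction. Differences are palbociclib-treated minus other tumours, p-values are two-sided and were adjusted by Benjamini-Hochberg over all tested genes. The fit was tested on simulated data.

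The genes named are the 12 non-overlapping genes in each direction with the smallest p and a mean of at least 2 FPKM, the first 6 further ones in each direction without vehicle replicate 2, the CDK4/6 and RANK panels, for each list up to 4 genes by smallest p and the 3 smallest interaction p-values in each direction; not all are printed. The comparison, its members and the 34 gene lists were chosen with earlier results of these data known. Lists are described by counts and medians, with no test of their own. Transcript length and GC content were matched by symbol from a GRCm38 annotation and found for 12942 tested genes (98.99%), and promoters from RefSeq, build GRCm38.p6. Alternatives covered scaling, pseudocount, filter, model, library weights and each library left out. Depth is unknown, so no counting interval is given.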

Additional observations from a re-analysis of the deposited data

Results flagged for a closer look

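Over 140 groups of 5 or 6 libraries (36 named genes and 34 gene lists, each in treated and in other tumours), 17 had 1 library whose distance to the nearest other, divided by the range, passed Dixon's 95% critical value (0.71 for 5 libraries, 0.625 for 6). Chance flags about 1 in 20 independent groups, but these groups are not independent, since some lists share genes. Some of the named genes, among them Tmem40, Urah, Fam162a and Sema7a, were chosen in the fit without vehicle replicate 2. That choice favours genes in which this library lies apart. Of the 17, 13 are vehicle replicate 2.

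Among the 5 tumours without palbociclib, vehicle replicate 2 was low for Msto1 (14.74 FPKM, against 21.07 to 23.2 in the other 4), Tmem40 (0.26, against 16.17 to 18.81), Urah (0.9, against 37.64 to 44.64), Fam162a (34.76, against 142.8 to 156.6) and Sema7a (27.26, against 42.2 to 44.73). Its mean log2(FPKM + 1) was low for the epithelial list (1.92, against 5.17 to 5.48), basement membrane (3.03, against 5.14 to 5.41), collagen processing and matrix enzymes (3.56, against 5.40 to 5.59), TGF-beta and Wnt antagonists (3.25, against 4.85 to 5.18), epithelial-mesenchymal transition (4.22, against 5.60 to 5.98), hypoxia and glycolysis (5.06, against 6.34 to 6.72), the senescence-associated secretory list (3.54, against 4.79 to 5.19) and immediate early genes (4.04, against 4.45 to 4.58).

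Vehicle replicate 1 was low for macrophage genes (4.72, against 5.61 to 5.86 in the other 4 tumours without palbociclib). Among treated tumours, combination replicate 3 was high for nuclear-encoded respiratory chain genes (7.95, against 7.27 to 7.52) and for B and plasma cell genes (1.34, against 0.46 to 0.77), and combination replicate 1 was high for Spon1 (15.69 FPKM, against 12.07 to 13.07).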

How the results depend on the processing

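Other settings changed the number of genes called. Reversals of direction were counted only among the named genes whose values are printed. Many of these were chosen for a small p or for values without overlap, which favours a stable sign. Genes that rose and fell numbered 280 and 330 in the 11-library fit, 93 and 117 after quantile normalization, 180 and 190 in the 4-group fit, 112 and 214 after the length and GC correction, 14 and 61 with no OPG-Fc term, and 1546 and 2023 with array weights. With libraries that share a column number averaged they numbered 0 and 3, and 800 and 772 genes lay above and below without overlap. The correlations of same-numbered samples, taken on deviations from group means, ran from -0.406 to 0.528. With 2 or 3 libraries in a group, they cannot show whether the replicate numbers pair the samples. The fit with the replicate block gave 1 and 5, and 74 and 165 without vehicle replicate 2. A filter at 5 FPKM left 319 genes below without overlap (427 without vehicle replicate 2). Without palbociclib replicates 1 and 3 the calls were 2 and 4 and the non-overlap counts 1160 and 1281; without vehicle replicate 2 as well they were 853 and 1312, and 1375 and 1815.

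With 1 library left out, calls ran from 0 to 826 higher and from 8 to 1496 lower, genes below without overlap from 499 to 1268, and interaction calls from 0 to 4798. In fits of 10 libraries (alternatives chosen after seeing the data), against 752 and 919, array weights gave 1637 and 2124, the 4-group fit 230 and 315, no OPG-Fc term 171 and 344, averaging 63 and 151 (906 above and 1014 below without overlap), quantile normalization 631 and 649, and the length and GC correction 544 and 825. Leaving out 1 more library gave 55 to 828 and 160 to 1116 calls, and 597 to 907 above and 680 to 1537 below.

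Among the named genes whose values are printed, the direction reversed in 4 that were not called. Reversals over all tested genes were not counted. Cdk6 was 0.0036 after quantile normalization. Ccnd1 was -0.0531 with array weights, -0.17 without vehicle replicate 2, -0.18 without palbociclib replicates 1 and 3 as well, and, without vehicle replicate 2, -0.34 after quantile normalization and -0.0069 after the length and GC correction. Tnfrsf11a was 0.048 and 0.19 in those last fits. Tnfsf11 was 0.0428 after quantile normalization, 0.21 with array weights, 0.07 without combination replicate 3, 0.18 without vehicle replicate 2, 0.0746 without palbociclib replicates 1 and 3 as well, and 0.29 and 0.22 in those last fits. With 1 library left out, Ccnd1 ran from -0.17 to 1.35 and Tnfsf11 from -0.32 to 0.18. The cause was not tested. Depth is unknown, 2 vehicle libraries limit the contrast without OPG-Fc, and values near 1 FPKM cannot show small differences.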

Other observations

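Histone genes, those named above included, were also looked at as a family, chosen by symbol after the values were seen. Of 54 tested, 6 rose, beside 2.14% of all tested genes, and none fell, and 52 had differences above 0, with a median of 0.71. Among the 6 were H1f4, H1f3 and the identical pair H2bc23 and H2bc24, all described above. With vehicle replicate 2 left out, 21 of 54 rose, beside 5.84%, with a median of 0.87. The median difference was 1.07 in the combination against OPG-Fc and 0.30 in palbociclib against vehicle. Summed over the family, levels were 149.2, 249.7 and 167.8 FPKM in palbociclib tumours and 344.6, 282.8 and 443.4 FPKM in combination tumours, against 177.7, 230.7 and 152.4 FPKM in OPG-Fc tumours and 104.7 and 203.4 FPKM in vehicle tumours. The 3 combination tumours lay above all 8 others, and the 3 palbociclib tumours lay within the range of the tumours without palbociclib or a little above it. The levels were low: 48 of the 54 genes had a median under 5 FPKM over the libraries.

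Other lists described by count only held at most 1 call with 11 libraries, beside 2.14% of all tested genes that rose and 2.52% that fell. Mast cell genes other than Kit, muscle genes (median 0.93 over 24), genes of T and NK cells (-1.42 over 24), genes of B and plasma cells (-2.11 over 19), MHC class I genes (0.12 over 21) and MHC class II genes (-0.30 over 11) had none by limma. Without vehicle replicate 2 these medians were 0.58 for muscle, -0.47 over 23 for T and NK cells, -1.07 over 9 for B and plasma cells, 0.10 for MHC class I and -0.02 over 10 for MHC class II. In that fit 2 muscle genes rose, and 2 B and plasma cell genes and 1 MHC class II gene fell, beside 5.84% and 7.14% of all tested genes that rose and fell. Members tested with 11 libraries but not in that fit had passed the filter only with vehicle replicate 2, a tumour without palbociclib. The filter thus favoured a negative difference for them, most of all in the B and plasma cell list. Its median of -2.11 is not a result about treatment.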
